A study of Solanum lycopersicum with 18 samples.

Results

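A set of 9 genes, grouped by name as cold regulators, was examined in tomato leaves. It held the dehydration-responsive element binding genes DREB1, DREB2 and DREB3, the ethylene response factor genes ERF-H5 and ERF-H14, and ICE1A, ZAT6, ZAT12 and HY5. They were picked by gene identifier, with earlier results of these data known, and they are 9 of the 23348 genes in the deposited table. All 9 were found, and all 9 passed the filter on low values (a group mean of 1 FPKM or more in any of the groups), DREB1 only through its 12 h groups. FPKM is the number of sequenced fragments scaled to transcript length and to the depth of the library.

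Transcripts were sequenced from leaves of 2 tomato materials, Micro-TOM (MT), a dwarf laboratory cultivar, and Micro-TOM-EX (EX), a material that the labels only name. Leaves were taken at 0, 4 and 12 h, with 3 libraries in each of the 6 groups and 18 libraries in all. The series was set up to compare these materials in the cold. Nothing in the labels says whether libraries of a group are from different plants, so the p-values measure the spread between libraries, which may be technical. Both materials grew in soil in a greenhouse with 16 h of light, and per the growth protocol both were exposed to cold for 0, 4 or 12 h. The stress label, however, reads control for all 9 MT libraries and cold for all 9 EX libraries, the 0 h libraries included. Which of these holds is not known, so the MT time course is either a cold or an untreated one, and changes from 0 h cannot be told apart from changes with the time of day. The labels give no temperature, plant age, transgene or origin for EX.

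In Arabidopsis, cold activates ICE1, a basic helix-loop-helix factor that turns on CBF genes, and CBF proteins of the DREB family then switch on protective genes through a short element in their promoters. DREB and ERF proteins share the AP2/ERF DNA-binding domain, and the DREB2 branch in Arabidopsis is better known for drought and heat than for cold. ZAT6 and ZAT12 are zinc finger repressors of stress genes in Arabidopsis, and HY5 is a basic leucine zipper factor that promotes light responses and anthocyanin synthesis and is removed in the dark by the ubiquitin ligase COP1.

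The names call for care. The identifier given as DREB2 in the deposited table and the one named ERF-H14 in RefSeq are different genes, although RefSeq also lists DREB2 as a synonym of ERF-H14. RefSeq lists SlERF-H15 as a synonym of DREB1 and SlERF.H12 as a synonym of DREB3, so the tomato numbers do not follow the Arabidopsis ones. The symbols ERF-H5, ERF-H14, ZAT6 and ZAT12 come from RefSeq, since the deposited table names these genes by identifier only. The tomato ZAT6 has at least 1711 intron bases and 4 transcripts, and ZAT12 at least 1318 intron bases and 5 transcripts, whereas the Arabidopsis genes of these names have no introns. The sources used here do not say what the tomato ZAT6 and ZAT12 do, and the symbols are used below as names only.

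The coordinates that follow are those of the deposited table, and the sources used here do not name its genome build. DREB1 lies on chromosome 6 from 33212778 to 33214777, and ICE1A on the same chromosome from 42694074 to 42697495. DREB2 lies on chromosome 12 from 1759693 to 1760913, and DREB3 on chromosome 4 from 59868067 to 59868901. The genes ERF-H5, from 61050872 to 61052119, and ERF-H14, from 62634411 to 62637232, are both on chromosome 5. ZAT6, from 2684907 to 2689072, and ZAT12, from 82960374 to 82965034, are both on chromosome 1, and HY5 is on chromosome 8 from 46747220 to 46750789. In DREB2, DREB3 and ERF-H5 the span of the gene equals the longest transcript, so these 3 have 0 intron bases by that measure. No gene of the table overlaps any of the 9.

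The 9 genes were expressed at very different levels. Averaged over the 18 libraries, DREB3 stood highest at 176 FPKM, followed by ZAT12 at 76.6, ICE1A at 51.4 and DREB2 at 23.4 FPKM. HY5 at 7.60 and ERF-H5 at 6.31 FPKM were near the middle of all genes. The 3 lowest were ZAT6 at 2.08, ERF-H14 at 2.07 and DREB1 at 0.921 FPKM. DREB3 was above 97.4% of the genes in the table and DREB1 above 26.7% of them.

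The precision follows these levels. The low FPKM values fall on steps of whole fragments, from which each library was estimated to hold 16400000 to 18400000 fragments. At that depth a library held an estimated 837 to 4393 fragments of DREB3, but 15 to 220 of HY5, 20 to 124 of ERF-H14 and 14 to 49 of DREB1. The first principal component, with 35.6% of the variance, set the 0 h libraries apart from the others, and the second, with 18.4%, set apart 2 MT libraries, library 1 at 0 h and library 1 at 4 h. The 6 leaf mesophyll markers summed to between 10390 and 31640 FPKM per library. The 2 lowest sums, 10390 and 11290 FPKM, were those of the 2 MT libraries set apart, and the other 16 libraries had 17200 FPKM or more. What part the mesophyll level has in the MT results below was not tested. Fits without these 2 libraries are given below for several of the results. None of the 5 flower and fruit markers reached the filter on low values.

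**Figure D1:**
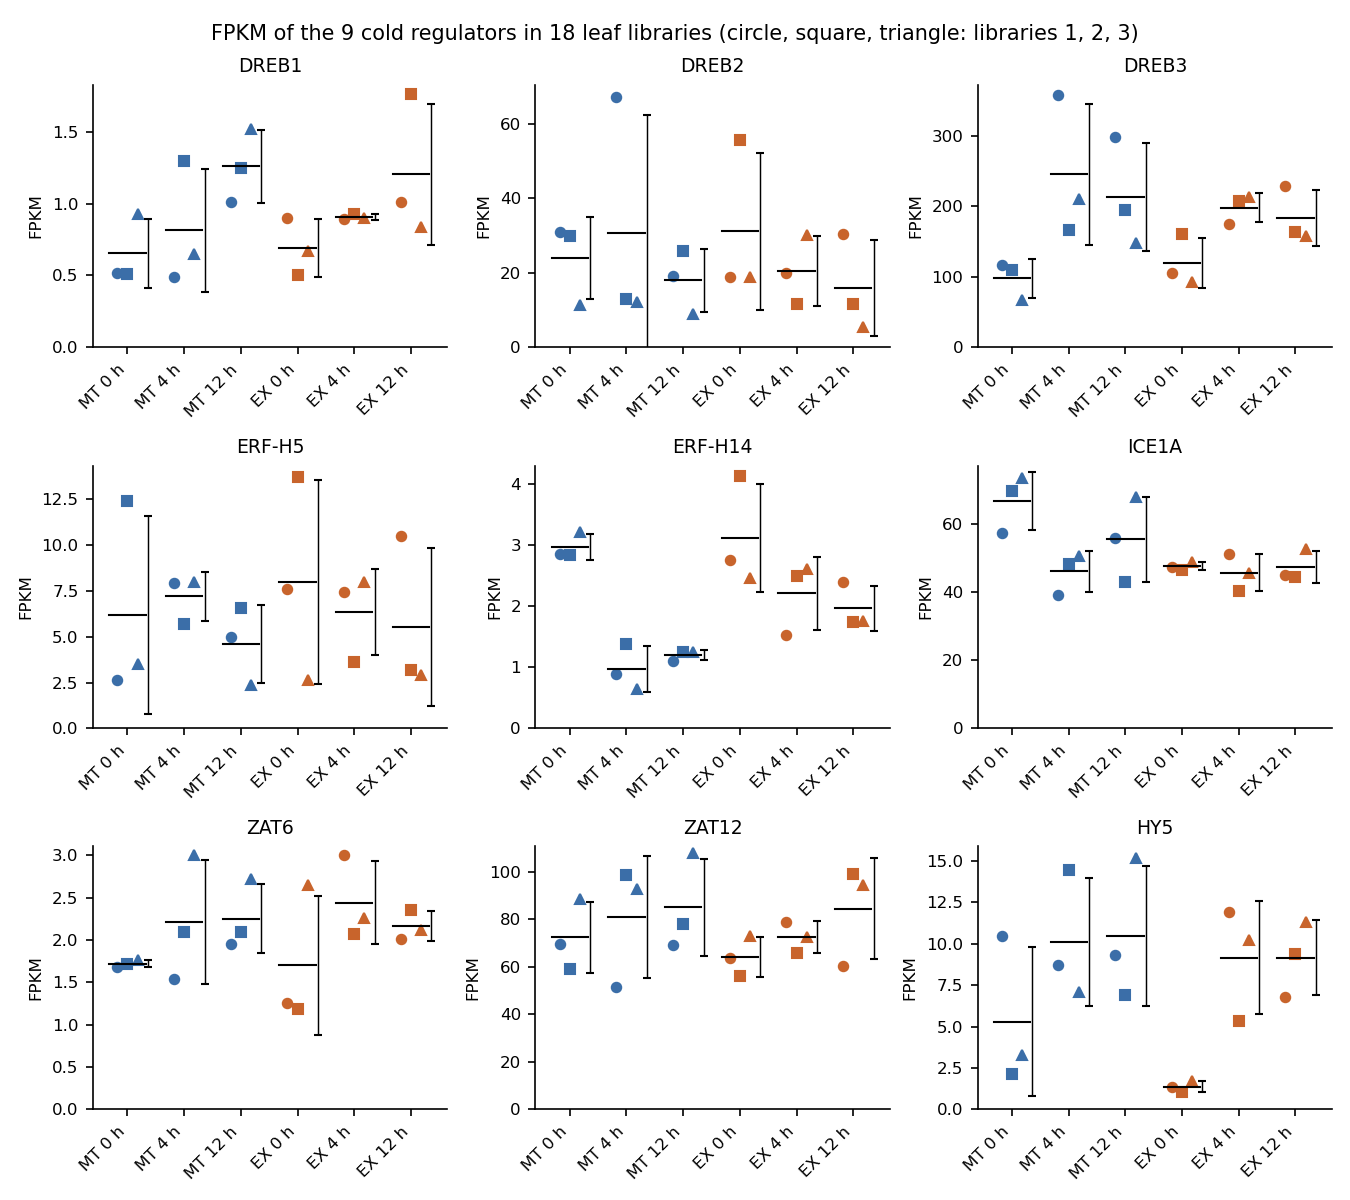
FPKM of each of the 9 genes (vertical axes, linear and starting at 0, each with its own range) in the 6 groups of line and time (horizontal axes). Each symbol is 1 library, horizontal lines are group means and bars are the SD of 3 libraries. All 3 EX libraries at 0 h lie below 2 FPKM for HY5, and the MT libraries of ERF-H14 are near 3 FPKM at 0 h and under 1.5 FPKM later.

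The question put first is how each gene changed from 0 h within a line. In MT, DREB3 rose at 4 h and 12 h, ERF-H14 fell at both times and ICE1A fell at 4 h. In EX, HY5 rose at 4 h and 12 h. DREB1, DREB2, ERF-H5, ZAT6 and ZAT12 passed the test at no time in either line. Changes were tested with limma on log2(FPKM + 1), adjusted over 17870 genes by the Benjamini-Hochberg method, and a gene passed at an adjusted p under 0.05. On this scale the changes of low genes such as ERF-H14 and DREB1 are understated.

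In MT at 4 h, 3 of 9 members passed against 14.2% of all genes tested, and at 12 h 2 of 9 against 21.2%. The count of 3 at 4 h was 0 when the compared libraries were fitted alone, and 1 when library 3 of the 0 h group or library 1 of the 4 h group was left out. The count of all genes called there was 2531, and it ran from 1820 to 3125 when 1 library was left out. Over the other alternatives it ran from 507 to 2645. In EX, 1 of 9 passed at 4 h against 11.3% of all genes, and 1 of 9 at 12 h against 16.6%. The median log2 difference of the 9 was 0.12 at 4 h and 0.22 at 12 h in MT, and 0.18 and 0.27 in EX, while the medians over all genes tested lay between -0.06 and 0.04. Between 4 h and 12 h no member passed in either line, 0 of 9 against 0.554% of all genes in MT and 0.201% in EX, and 0 of 9 had an unadjusted limma p under 0.05 in either line, against 12.4% of all genes in MT and 6.63% in EX. For that step the authors' deposited table gives a q under 0.05 for 6 of the 9 in MT and for 4 in EX, against 62.1% and 56.0% of all genes with a q.

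**Figure D2:**
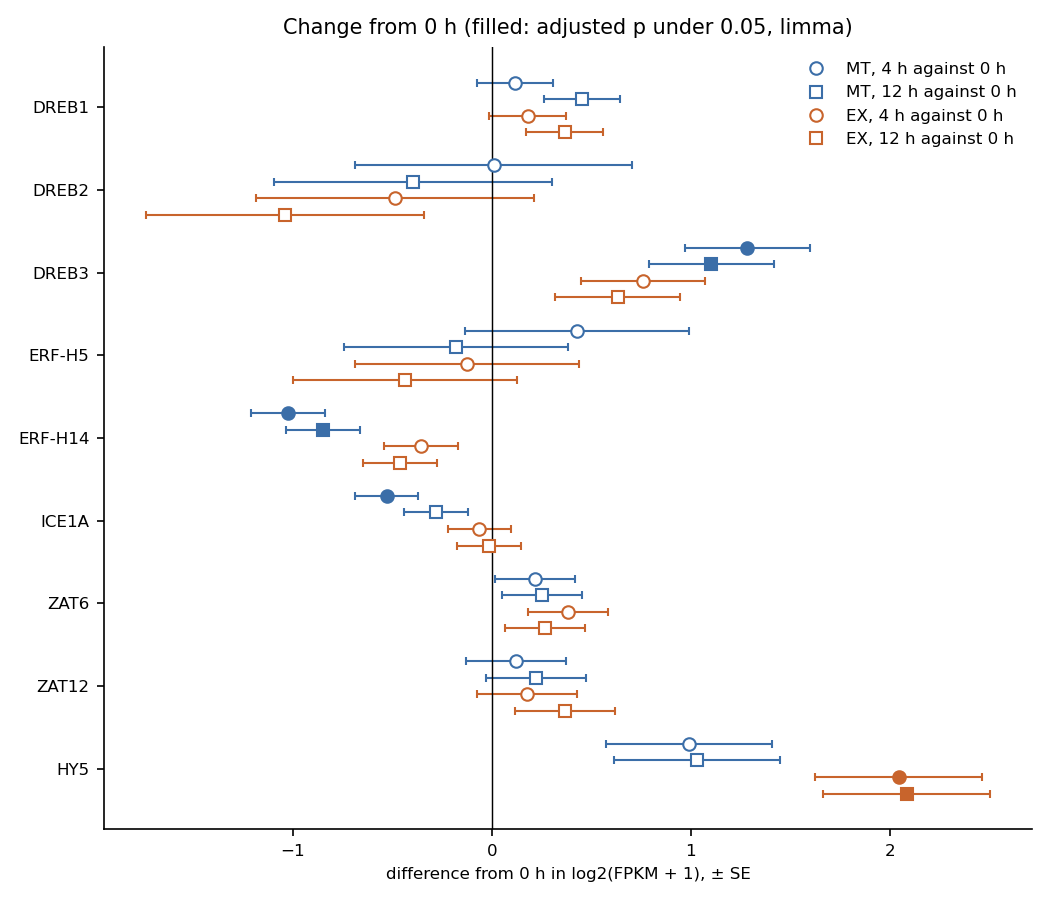
Difference from 0 h in log2(FPKM + 1) (horizontal axis) for each of the 9 genes, with bars of 1 SE from limma. Blue is MT and orange EX, circles are 4 h and squares 12 h, and filled symbols have an adjusted p under 0.05. DREB3 at 1.28 and ERF-H14 at -1.02 in MT, and HY5 at 2.05 and 2.08 in EX, lie farthest from 0 among the filled symbols.

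DREB3 was the most abundant of the DREB genes. In MT its libraries held 116.69, 110.0 and 66.72 FPKM at 0 h, 358.56, 167.05 and 210.66 FPKM at 4 h, and 298.39, 195.09 and 148.5 FPKM at 12 h. Every MT library at 4 h and 12 h was above every MT library at 0 h. Such separation was common. Of all genes tested, 22.3% had no overlap with 0 h in either direction in MT at 4 h, and 33.8% at 12 h. In EX the shares were 35.6% at 4 h and 36.5% at 12 h. The same shares apply to the other genes below that did not overlap with 0 h. The log2 difference of DREB3 in MT was 1.28 ± 0.31 (SE) at 4 h, with an adjusted p of 0.0123 from limma. At 12 h it was 1.10 ± 0.31, with an adjusted p of 0.0217.

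In EX the same gene held 105.03, 160.63 and 93.33 FPKM at 0 h, 174.76, 207.21 and 213.34 FPKM at 4 h, and 229.41, 163.23 and 158.22 FPKM at 12 h. The 4 h libraries were all above those at 0 h, and the 12 h libraries overlapped them. The log2 differences of 0.76 at 4 h (limma adjusted p 0.146) and 0.63 at 12 h (0.191) did not pass. The difference between the lines in this change was -0.53 ± 0.44 at 4 h, with an adjusted p of 0.894, so the changes of DREB3 in MT and EX were not shown to differ.

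With fewer libraries the DREB3 difference in MT kept its direction but did not always pass. At 4 h it was 1.03 without library 3 of MT at 0 h (limma adjusted p 0.0612), 0.97 when library 1 of the 4 h group was left out (0.0579), and 1.12 without both MT libraries that stood apart (0.0521). At 12 h it was 0.85 without library 3 of MT at 0 h (0.0971). Leaving out a library of the 12 h group gave 0.83 for library 1 (limma adjusted p 0.107) and 1.14 for library 2 (0.0515), against 1.10 with all libraries.

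ERF-H14 moved the other way. In MT its libraries held 2.85, 2.84 and 3.22 FPKM at 0 h, 0.89, 1.39 and 0.64 FPKM at 4 h, and 1.11, 1.25 and 1.25 FPKM at 12 h. The 0 h libraries lay above all later ones with a wide gap. The log2 difference was -1.02 ± 0.18 at 4 h, with a limma adjusted p of 0.00162, and -0.85 ± 0.18 at 12 h, with a limma adjusted p of 0.00501. Both calls held when any 1 library was left out, and the 4 h call was lost when the compared libraries were fitted alone (0.0595), with the same difference.

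In EX, ERF-H14 held 2.76, 4.13 and 2.47 FPKM at 0 h, 1.53, 2.5 and 2.61 FPKM at 4 h, and 2.39, 1.75 and 1.76 FPKM at 12 h. The 4 h libraries overlapped those at 0 h, and the 12 h libraries lay just below them. The log2 differences of -0.36 at 4 h (limma adjusted p 0.264) and -0.46 at 12 h (0.105) did not pass. The change differed between the lines by 0.67 ± 0.26 at 4 h, with an adjusted p of 0.702, and by 0.39 ± 0.26 at 12 h, with an adjusted p of 0.448.

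The remaining DREB and ERF genes showed no change that passed. DREB2 held 30.89, 29.8 and 11.36 FPKM in MT at 0 h and 67.12, 12.89 and 12.09 FPKM at 4 h. A single library thus carried the 4 h mean of 30.7 ± 31.5 FPKM (SD, n = 3). In EX it held 18.83, 55.53 and 18.97 FPKM at 0 h and 30.33, 11.76 and 5.47 FPKM at 12 h, again with 1 high library in each group, and the log2 difference of -1.04 ± 0.70 had a limma adjusted p of 0.342.

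ERF-H5 ranged from 2.35 to 13.71 FPKM over the 18 libraries. Its group means ran from 4.63 FPKM in MT at 12 h to 7.98 FPKM in EX at 0 h, and the libraries of any 2 groups of a line overlapped. DREB1 had means of 0.653, 0.813 and 1.26 FPKM at 0, 4 and 12 h in MT and of 0.690, 0.907 and 1.203 FPKM in EX. All 3 MT libraries at 12 h, at 1.01, 1.25 and 1.52 FPKM, were above the 3 at 0 h, at 0.52, 0.51 and 0.93 FPKM, with a log2 difference of 0.45 ± 0.19 and a limma adjusted p of 0.106.

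ICE1A, the tomato gene named after the Arabidopsis activator of CBF genes, was the steadiest of the 9, with a 1.87-fold range from the lowest to the highest library. In MT it held 57.21, 69.6 and 73.47 FPKM at 0 h, 39.18, 48.19 and 50.59 FPKM at 4 h, and 55.82, 42.79 and 67.73 FPKM at 12 h. All 4 h libraries were below all 0 h libraries, and the 12 h libraries overlapped both. The log2 difference was -0.53 ± 0.16 at 4 h, with a limma adjusted p of 0.0381, and -0.28 ± 0.16 at 12 h, with a limma adjusted p of 0.228.

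In EX, ICE1A stayed within 40.27 and 52.59 FPKM in all 9 libraries. Its log2 differences from 0 h were -0.06 ± 0.16 at 4 h and -0.01 ± 0.16 at 12 h. The difference between the lines in the 4 h change, 0.47 ± 0.23, had a limma adjusted p of 0.780. The MT call at 4 h was lost under 7 of the 18 fits that leave out 1 library, with log2 differences between -0.42 and -0.57 and limma adjusted p-values between 0.0506 and 0.130. Without both MT libraries that stood apart the difference was -0.53, as with them, with a limma adjusted p of 0.0815.

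Neither ZAT gene passed. ZAT12 held between 51.35 and 107.83 FPKM, with group means from 64.1 FPKM in EX at 0 h to 85.0 FPKM in MT at 12 h, and its largest log2 difference from 0 h was 0.37 ± 0.25 in EX at 12 h, with a limma adjusted p of 0.351. ZAT6 held between 1.19 and 3.0 FPKM. In MT it was at 1.68, 1.72 and 1.76 FPKM at 0 h and at 1.95, 2.09 and 2.72 FPKM at 12 h, which did not overlap, but the log2 difference of 0.25 ± 0.20 had a limma adjusted p of 0.399.

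HY5 showed the largest change of the 9. In EX its libraries held 1.38, 1.02 and 1.72 FPKM at 0 h, 11.91, 5.34 and 10.23 FPKM at 4 h, and 6.81, 9.36 and 11.34 FPKM at 12 h. Every later library was several times above every 0 h library. The mean rose 6.67-fold by 4 h, a log2 difference of 2.05 ± 0.42 with a limma adjusted p of 0.0046, and 6.68-fold by 12 h, a log2 difference of 2.08 ± 0.42 with a limma adjusted p of 0.00324. Both calls held under every alternative that was run.

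In MT, HY5 held 10.49, 2.13 and 3.3 FPKM at 0 h, 8.71, 14.46 and 7.1 FPKM at 4 h, and 9.34, 6.92 and 15.16 FPKM at 12 h. Library 1 of MT at 0 h was as high as the later libraries, so the times overlapped. The log2 differences of 0.99 ± 0.42 at 4 h (limma adjusted p 0.132) and 1.03 ± 0.42 at 12 h (0.0917) did not pass. Without that library they were 1.54 with a limma adjusted p of 0.0112 and 1.58 with a limma adjusted p of 0.00896, and both passed. Without both MT libraries that stood apart they were 1.61 (limma adjusted p 0.0231) and 1.58 (0.0106).

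Whether HY5 changed more in EX than in MT was tested directly. The difference between the lines was 1.05 ± 0.59 at 4 h, with a limma adjusted p of 0.829, and 1.05 ± 0.59 at 12 h, with a limma adjusted p of 0.374. None of the 9 genes passed this test, 0 of 9 against 0.101% of all genes at 4 h and 0.0224% at 12 h. At an unadjusted limma p under 0.05, 1 of 9 passed at 4 h, ERF-H14, against 6.5% of all genes, and 0 at 12 h, against 16.5%. Of the 3 genes matched from the clock list, CO1 and CO3 of the CONSTANS family rose in both lines at both times. LNK1 fell in MT and did not pass in EX. The summed level of the 3 was 41.2 to 54.3 FPKM at 0 h and 86.5 to 104 FPKM at 4 h in MT, and 35.9 to 44.0 and 77.7 to 79.8 FPKM in EX. The part of these 3 genes in the changes of HY5 was not tested.

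The other question of the design is how EX differed from MT at a given time. None of the 9 genes passed at 0 h, against 3.17% of all genes tested, at 4 h, against 0.297%, or at 12 h, against 0.134%. At an unadjusted limma p under 0.05 there were 2, 1 and 1 of the 9, against 23.8%, 14.1% and 3.35% of all genes. The authors' deposited table gives a q under 0.05 for 6, 5 and 6 of the 9, against 70.4%, 63.6% and 46.2% of all genes with a q. The median log2 difference over the 9 was 0.03 at 0 h, -0.11 at 4 h and -0.05 at 12 h, against -0.10 over all genes tested at 0 h.

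At 0 h the genes that differed most were HY5 and ICE1A, the only 2 of the 9 whose libraries did not overlap. Of all genes tested, 21.6% had no overlap. The mean of HY5 was 1.37 ± 0.35 FPKM in EX and 5.31 ± 4.53 FPKM in MT (SD, n = 3 each). Its log2 difference of -1.19 ± 0.42 had a limma adjusted p of 0.112. It reached 0.0217 without library 2 of MT at 0 h, and the difference was -0.64 without library 1 of MT at 0 h. ICE1A was at 47.5 ± 1.19 FPKM in EX and 66.8 ± 8.49 FPKM in MT (SD, n = 3 each), with a log2 difference of -0.47 ± 0.16 and a limma adjusted p of 0.101.

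After 4 h, ERF-H14 was the only 1 of the 9 with no overlap between the lines, against 22.1% of all genes. Its EX libraries held 1.53, 2.5 and 2.61 FPKM and its MT libraries 0.89, 1.39 and 0.64 FPKM. The log2 difference of 0.70 ± 0.18 had a limma adjusted p of 0.139, and it was 0.0323 without library 2 of MT at 4 h. At 12 h its EX libraries were again all higher, 1.75 FPKM or more against at most 1.25 FPKM, and 12.2% of all genes had no overlap there in either direction. Its limma adjusted p at 12 h was 1. HY5, which stood apart at 0 h, had means of 9.16 FPKM in EX and 10.1 FPKM in MT at 4 h, with overlapping libraries.

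The order of the group means differed by gene. For HY5 it ran from MT at 12 h, MT at 4 h, EX at 12 h and EX at 4 h, which overlap each other, down to MT at 0 h and then EX at 0 h. DREB3 ran from MT at 4 h and 12 h through EX at 4 h and 12 h to EX at 0 h and MT at 0 h, and neighbours in that order overlapped. For ERF-H14 both 0 h groups came first, then EX at 4 h and 12 h, then MT at 12 h and 4 h, and MT at 0 h did not overlap EX at 4 h, nor EX at 12 h MT at 12 h.

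Libraries of the same group differed from each other more for some members than for most genes. The SD within groups was 0.955 on the log2(FPKM + 1) scale for DREB2, larger than for 98.8% of the genes tested, 0.767 for ERF-H5, larger than for 96.9%, and 0.564 for HY5, larger than for 91.9%. For ICE1A it was 0.194, below the median of 0.239.

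Some pairs of members shared these deviations, and the pairs named next were chosen for high or low agreement after their values were seen. DREB2 and DREB3 had the same sign of deviation from the group mean in 15 of 18 libraries and the same highest library in 5 of 6 groups. DREB2 and ERF-H5 also had the same sign in 15 of 18 libraries. ZAT6 and ZAT12 shared the highest library in 5 and the lowest in 5 of the 6 groups, and ICE1A and ZAT12 the same sign in 15 of 18. DREB3 and ZAT12 tended apart, with the same sign in 3 of 18 libraries and no group with the same highest library. Other pairs lay lower than 15, such as ICE1A and HY5 with the same sign in 11 of 18 and DREB2 and ICE1A in 7. These counts are descriptions, since deviations within a group sum to 0 and the genes share their libraries. How often other pairs of genes agree was not counted.

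The wounding markers moved with DREB3. The list holds 9 genes, all 9 passed the filter, and none was at 0 throughout. Their summed level and DREB3 deviated from the group mean in the same direction in 18 of 18 libraries, and they had the same highest library in 5 of 6 groups. DREB2 did so in 15 of 18 libraries, ERF-H5 in 12 and ZAT12 in 3. The members were also set beside the leaf mesophyll sum, the clock sum and a measure of genes without introns. With the mesophyll sum ZAT6 had the same sign in 14 of 18 libraries and ICE1A in 13, and with the clock sum ZAT12 in 13. The share of all genes that follow the wounding sum was not counted, so the 18 of 18 is not shown to be particular to DREB3.

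Per group, the wounding sum ran from 209 to 466 FPKM in MT at 0 h, from 298 to 474.5 FPKM at 4 h and from 358 to 969 FPKM at 12 h. In EX it ran from 272 to 801, from 316 to 666 and from 323 to 721 FPKM. The groups overlapped at all times. Of the 9 genes 0 passed in MT at 4 h, 1 rose and 1 fell in MT at 12 h, and 1 rose in EX at each time. What part the wounding genes' signal has in the DREB3 result was not tested.

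**Figure D3:**
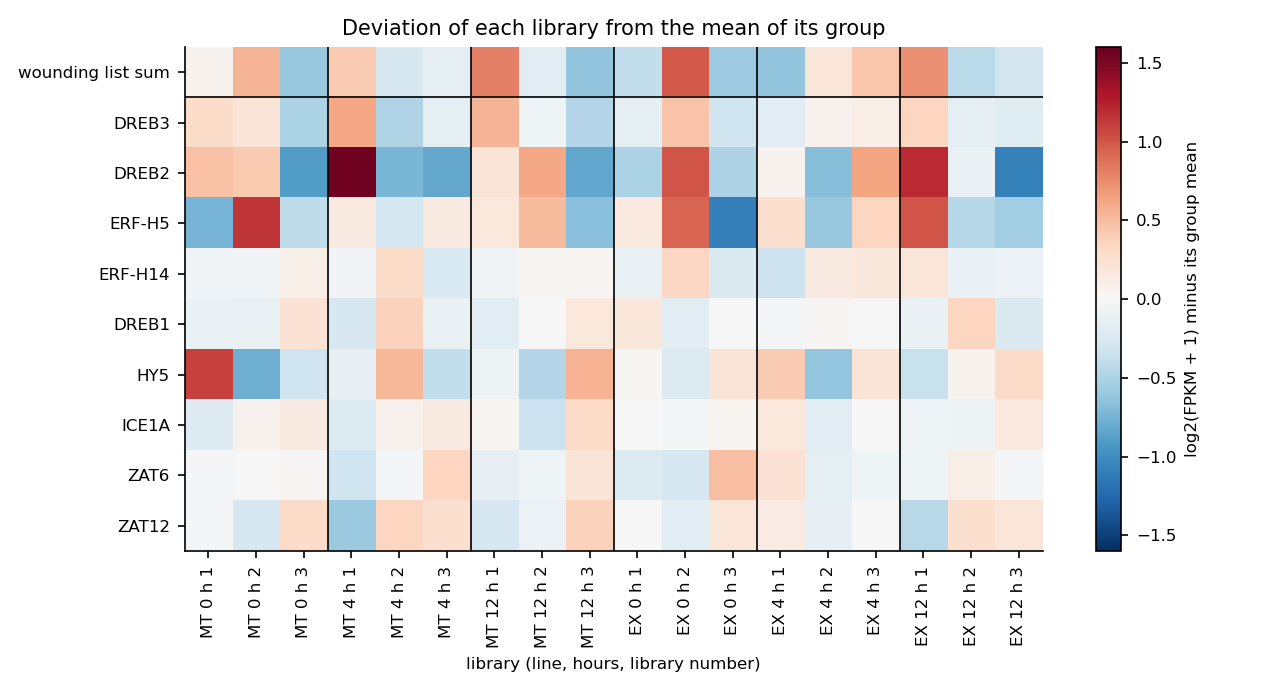
Deviation of each library from the mean of its group, in log2(FPKM + 1) (colour, red above and blue below), for the summed wounding markers (top row) and the 9 genes (rows), with 1 column per library and black lines between groups. The rows of DREB3, DREB2 and the wounding sum are red in library 2 of EX at 0 h and in library 1 of EX at 12 h, where the row of ZAT12 is blue.

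Of the cold pathway around ICE1, 8 further genes were tested. None rose in any time comparison, 1 fell in MT at each time and 2 fell in EX at each time. Of all genes tested, 14.2% passed in MT at 4 h and 21.2% at 12 h, and in EX 11.3% and 16.6%. These shares also apply to the counts of the other lists. CBF1, the tomato counterpart of the Arabidopsis cold-induced CBF genes, held 80.2, 29.57 and 111.17 FPKM in MT at 0 h and 20.2, 15.62 and 14.72 FPKM at 4 h, with no overlap. It fell by 1.88 on the log2 scale in MT at 4 h (limma adjusted p 0.0417), and its log2 difference of -1.11 in MT at 12 h did not pass (0.187). In EX the log2 differences were -2.198 at 4 h (0.0223) and -2.26 at 12 h (0.0147). MKK4, a kinase of the mitogen-activated cascades, fell in MT at 12 h, by a log2 difference of -1.58 (0.00303), and in EX at both times, by -1.14 (0.030) and -1.10 (0.0279).

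Of the proteins of drought and cold protection, 8 of 11 were tested, and 1 rose in each of the 4 comparisons with 0 h. It was TIL, a temperature-induced lipocalin of membranes, which held 36.86 to 50.24 FPKM in MT at 0 h and 60.11 to 63.85 FPKM at 4 h, and rose by a log2 difference of 0.48 (limma adjusted p 0.0104). Its log2 difference was 0.56 in MT at 12 h (0.0033), and in EX 0.42 at 4 h (0.0259) and 0.48 at 12 h (0.00949). TAS14, a dehydrin, passed at no time, with EX means of 14.5 FPKM at 0 h and 96.4 FPKM at 12 h.

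Of the light signalling genes around HY5, 18 of 23 were tested. In MT 0 rose at either time, while 1 fell at 4 h and 2 fell at 12 h. In EX 1 rose and 1 fell at 4 h, and 2 rose and 1 fell at 12 h. COP1, which marks HY5 for degradation in Arabidopsis, held between 9.82 and 11.63 FPKM in EX at 0 h, 27.99, 22.43 and 22.81 FPKM at 4 h, and 18.06, 28.01 and 28.23 FPKM at 12 h. It rose in EX by a log2 difference of 1.10 at 4 h (limma adjusted p 0.00131) and 1.10 at 12 h (0.00106).

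COP1 was also the 1 gene of this list that differed between the lines at 0 h. Its MT libraries held 19.69, 16.01 and 20.21 FPKM, all above those of EX, with a log2 difference of -0.73 ± 0.19 and a limma adjusted p of 0.0497. In MT its log2 differences from 0 h were 0.01 at 4 h (0.976) and 0.41 at 12 h (0.139), and the change did not differ between the lines by the test, with limma adjusted p-values of 0.303 at 4 h and 0.243 at 12 h. The mean levels of HY5 and of COP1 were both lowest in EX at 0 h, but HY5 did not pass against MT there (limma adjusted p 0.112). Of all genes tested, 15.7% had all EX libraries below all MT libraries at 0 h, and 5.81% had them above.

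ANS, an enzyme of anthocyanin synthesis, fell in all 4 comparisons with 0 h, by log2 differences of -1.29 and -1.35 in MT (limma adjusted p 8.14e-05 and 4.21e-05) and of -0.80 and -0.94 in EX (0.00391 and 0.00096). The photoreceptor gene PHYB2 fell in MT at 12 h, by a log2 difference of -1.43 (0.0109), and CRY2, a blue light receptor, rose in EX at 12 h, by 0.65 (0.043).

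Of the other AP2/ERF genes, 46 of 58 were tested. CBF1 is on this list too, and its falls are counted here again. In MT 5 rose and 6 fell at 4 h, and 7 rose and 5 fell at 12 h, against 14.2% and 21.2% of all genes tested. In EX 4 rose and 5 fell at 4 h, and 9 rose and 5 fell at 12 h, against 11.3% and 16.6%. ERF1, an ethylene response factor, rose in all 4 comparisons, with log2 differences of 2.32 and 2.40 in MT (limma adjusted p 0.00199 and 0.00135) and of 3.37 and 4.06 in EX (0.000104 and 1.51e-05). At 0 h ERF1 was lower in EX, at 1.59 FPKM against 8.83 FPKM in MT (log2 difference -1.74, limma adjusted p 0.0438). It was the 1 gene of this list that passed there, against 3.17% of all genes. Its change did not differ between the lines by the test, with limma adjusted p-values of 0.842 at 4 h and 0.240 at 12 h. ERF-B5 fell in all 4, with log2 differences of -2.17 and -2.18 in MT (0.0148 and 0.0114) and of -1.95 and -3.03 in EX (0.0296 and 0.00145). ERF3 was among those that rose in MT at 12 h, with a log2 difference of 1.61 (0.0181), although its libraries overlapped those at 0 h.

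The subgroup named ERF-H, to which the RefSeq names assign DREB1, DREB3, ERF-H5 and ERF-H14, has 11 more genes in the table, of which 8 were tested and 2 passed in any comparison with 0 h. They were singled out after their values were seen. ERF-H10, at 312 FPKM in MT and 265 FPKM in EX at 0 h, rose in all 4 comparisons, with log2 differences of 1.06 and 0.66 in MT (limma adjusted p 0.00412 and 0.043) and of 0.97 and 0.87 in EX (0.0086 and 0.0127). In MT its 12 h libraries overlapped those at 0 h, where library 1 held 456.08 FPKM. ERF-H1 fell in EX, with log2 differences of -2.31 at 4 h (0.00964) and -2.301 at 12 h (0.00771), and in MT its log2 differences were 0.86 (0.312) and -1.15 (0.134). Whether this family holds near-identical copies, with reads split between genes by the authors' counting, was not tested.

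**Figure D4:**
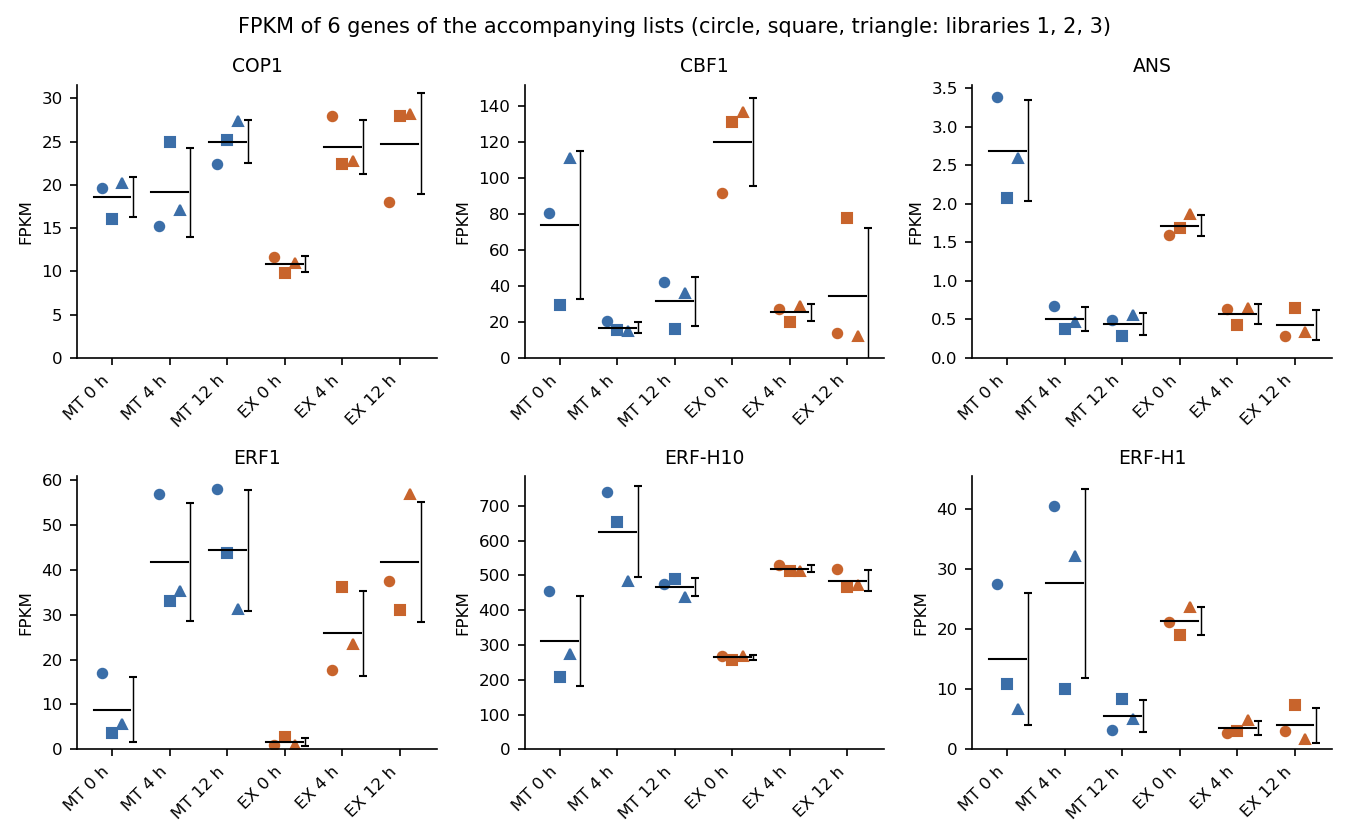
FPKM (vertical axes, linear and starting at 0) of COP1, CBF1, ANS, ERF1, ERF-H10 and ERF-H1 in the 6 groups of line and time (horizontal axes). Each symbol is 1 library, horizontal lines are group means and bars are the SD of 3 libraries. COP1 in EX lies between 9.82 and 11.63 FPKM at 0 h and above 18 FPKM later, and CBF1 and ANS are higher at 0 h than at 4 h in both lines.

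The last comparison asks which named genes had profiles most like those of the 4 members whose group means spanned at least 1 log2 unit. Likeness was the root mean square difference of the 6 centred group means of log2(FPKM + 1), over 1335 or 1336 genes with a symbol. HY5 was nearest to IAA5 (0.19), Dof22 (0.20) and 4CL (0.21), and DREB3 to PMEU1 (0.08), TRM6/7/8B (0.10) and TCP3 (0.13). ERF-H14 was nearest to TRM9 (0.16), TIL' (0.17) and LNK1 (0.18), and DREB2 to XTH7 (0.12), LecRK (0.12) and TBP (0.12). Measured over the 18 libraries instead, LNK1 was the 1 of these 12 that stayed among the nearest 3. The comparison is a description of group means and carries no test.

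The authors' deposited table gives its own log2 ratios and q-values for 9 comparisons of 2 groups. In it 46.2 to 77.0% of the genes with a q had one under 0.05, depending on the comparison. Of the 81 pairs of a member and a comparison, 60 had a q under 0.05 in the authors' deposited table, and in 45 of those 60 the libraries of the groups overlapped. Of all genes tested, only 12.2 to 36.5% had no overlap, depending on the comparison. The overlap among all genes with a q under 0.05 was not counted, so the 45 is not a result about the members. DREB2 in EX against MT at 4 h is a pair with overlap, with a log2 ratio of -0.59 and a q of 4.29e-28 in the authors' deposited table. The sources used here do not say how those q-values were computed. All 7 pairs that passed the limma test had a q under 0.05 there too.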

How the data were processed

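Leaf RNA of 18 libraries was measured, 3 for each of 2 lines at 3 times, and groups were taken from the labels. The authors deposited FPKM values with 2 decimals for 23348 genes in 1 table, per the file headers. It also holds the authors' q-values, p-values and log2 ratios between groups. The deposited p-values were not used, and what is printed from the log2 ratios and q-values is named as the authors'. The submitters' processing notes list, in no stated role, DESeq2 1.4.5, RSEM 1.2.12, HISAT2 2.0.4 and Bowtie2 2.2.5. The sources used here do not give the genome build or say whether counting used strand. A second set of 18 FPKM columns was identical to the first.

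The 17870 genes whose mean reached 1 FPKM in any group were transformed to log2(FPKM + 1) and tested in limma 3.58.1 (R 4.3.3) over all 18 libraries, with 6 group means and a mean-variance trend. The 9 comparisons of 2 groups and 2 interactions were 2-sided and each adjusted by the Benjamini-Hochberg method. Symbols came from RefSeq (assembly SLM_r2.1), which matched 21649 identifiers. Members, lists and tests were chosen with earlier results of these data known. Besides the 9 members, the genes named are the 3 nearest profiles of a member and, of each list, up to 3 called genes with the largest change per comparison with 0 h. TAS14 and ZF2 were named after their values were seen, as was COP1 at 0 h and in MT. So were ERF1, CER6, CD2, CAB5 and TD2 at 0 h, and the ERF-H genes.

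The tests did not pair libraries by replicate number, and such a pairing was not excluded. Alternatives were another pseudocount (0.1 or 5), no filter or a stricter one, median-of-ratios factors, other moderation, library weights, the compared libraries alone, a replicate block, and fits that leave out libraries.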

Additional observations from a re-analysis of the deposited data

How the results depend on the processing

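Besides the fits that leave out 1 library, 11 alternatives were run. The counts of members called in the interactions, between 4 h and 12 h in either line, and in EX against MT at 12 h stayed at 0 in all of them. With library weights, 2 members were called in EX against MT at 0 h (HY5 and ICE1A), 1 at 4 h (ERF-H14), and for EX the counts were 3 at 4 h and 7 at 12 h. Under those weights 22.9% of all genes were called in EX against MT at 0 h, 2.02% at 4 h, and in EX 46.2% at 4 h and 48.8% at 12 h. The estimation of those weights stopped before it converged and gave 1 library of EX at 0 h a weight of 8.54. With the compared libraries alone, the count in MT was 0 at 4 h and 1 at 12 h. A filter of 5 FPKM or more in 3 libraries drops DREB1, ERF-H14 and ZAT6, and then 1 was called in MT at 12 h. Without both MT libraries that stood apart the MT counts were 2 at 4 h and 3 at 12 h. Leaving out 1 library gave in MT 1 to 4 members at 4 h and 1 to 3 at 12 h, 0 to 1 in EX against MT at 0 h and at 4 h, and 1 in EX at either time. The MT counts of all genes then ran from 1820 to 3125 at 4 h and from 2279 to 5136 at 12 h. In EX against MT they ran from 90 to 3397 at 0 h and from 13 to 509 at 4 h. In EX they ran from 1184 to 2320 at 4 h and from 1742 to 3510 at 12 h. Over the other alternatives the MT counts of all genes ran from 507 to 2645 at 4 h and from 1488 to 5406 at 12 h. The call of ICE1A in MT at 4 h was also lost with median-of-ratios factors (limma adjusted p 0.0522).

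Small differences that did not pass changed sign. With library weights DREB2 came to -0.170 at 4 h and 0.135 at 12 h in MT, and to 0.128 in EX at 4 h. ERF-H5 came to 0.185 in MT at 12 h, and ICE1A to 0.0623 in EX at 12 h. Without both MT libraries that stood apart DREB2 came to -0.53 and ERF-H5 to -0.0088 in MT at 4 h. Over the fits that leave out 1 library, DREB2 ran from -0.769 to 0.421 at 4 h and from -0.844 to 0.0166 at 12 h in MT, and from -0.799 to 0.0175 in EX at 4 h. ERF-H5 ran from -0.549 to 0.395 in MT at 12 h, and in EX from -0.672 to 0.340 at 4 h and from -0.980 to 0.0311 at 12 h. In MT at 4 h the range was -0.0669 to 0.246 for DREB1 and -0.0466 to 0.418 for ZAT12. For ICE1A in EX it was -0.145 to 0.0236 at 4 h and -0.0903 to 0.0311 at 12 h. The cause was not tested.

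With the replicate block the counts of members called were 3 and 2 in MT and 1 and 1 in EX, as without it. Of 45 pairs of libraries with the same number, 21 had deviations correlated over 0.1, and the correlations ran from -0.42 to 0.57. Of 90 pairs with different numbers, 37 did, with correlations from -0.58 to 0.58. These counts do not show a pairing by number and do not exclude one. The block moved the count of all genes called in EX against MT at 0 h from 567 to 371. Over all alternatives that count ran from 23 to 4096, and that of EX at 12 h from 1742 to 8721. Median-of-ratios factors removed a shift of -0.10 in the median of all genes in EX against MT at 0 h, where HY5 then stood at -1.10. The nearest profiles over 18 libraries shared 0 of 3 genes for DREB2, DREB3 and HY5, and 1 of 3 for ERF-H14. The planned look at motifs in the promoters of the members was not run, and sequences were not used here. The lowest estimated fragment counts in any library, 14 for DREB1, 15 for HY5 and 20 for ERF-H14, limit the precision of those values.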

Other observations

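Of the abscisic acid genes, 5 of 6 were tested, and 2 rose in each comparison with 0 h. They were NCED1 and NCED2, which encode the dioxygenase of the committed step of abscisic acid synthesis. NCED1 went from 17.4 ± 6.34 to 106 ± 26.5 FPKM in MT at 4 h and from 20.1 ± 3.74 to 180 ± 19.1 FPKM in EX (SD, n = 3 each), log2 differences of 2.59 (limma adjusted p 4.95e-06) and 3.11 (7.66e-07). NCED2 rose by 2.56 in MT (1.02e-05) and 2.06 in EX (6.97e-05) at 4 h. CYP707A2, an abscisic acid hydroxylase, fell in EX, with log2 differences of -1.96 at 4 h (0.0431) and -2.08 at 12 h (0.0253).

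Of the 3 genes matched from the clock list, CO1 and CO3 of the CONSTANS family rose in all 4 comparisons with 0 h. CO1 rose by 3.43 at 4 h in MT (limma adjusted p 3.64e-06) and 3.24 in EX (6.49e-06), more than any of the 9 members. LNK1 fell in MT, with log2 differences of -0.83 at 4 h (0.0124) and -0.70 at 12 h (0.0227).

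Of 9 further bHLH and bZIP genes, the families of ICE1A and HY5, all were tested and 1 rose and 1 fell, in MT at 12 h. MYC1 rose by 0.73 (limma adjusted p 0.0123) and abz1 fell, with a log2 difference of -1.12 (0.0439). The abz1 libraries of MT at 0 h held 9.62, 1.71 and 2.86 FPKM, so library 1 carried that mean. The 1 gene matched on the list of C2H2 zinc finger names, ZF2, passed in none of the comparisons with 0 h. At 0 h, 3 genes of the lists of cell type and wounding markers differed between the lines, in both directions. CER6, an enzyme of epidermal wax synthesis, was lower in EX, at 70.9 ± 16.2 FPKM in EX and 124 ± 22.2 FPKM in MT (SD, n = 3 each), a log2 difference of -0.82 with a limma adjusted p of 0.0365. CD2, the other gene of the epidermal list, had a log2 difference of -0.05 (0.844). The leaf mesophyll marker CAB5, a chlorophyll-binding protein gene, was higher in EX by a log2 difference of 1.91 (0.0455), and so was the wounding marker TD2, by 1.83 (0.0416).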
